A study of Mus musculus with 2 samples.

Results

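The miR-106b-25 cluster is a group of 3 microRNA hairpins, Mir106b, Mir93 and Mir25, that lie together inside the gene Mcm7 on mouse chromosome 5. The 3 members were chosen by name and position, as the hairpins within Mcm7, and not by any measured value. All 3 were found among the 1973 counted genes. Small RNA was sequenced from the forebrain of healthy B6NCrl mouse embryos at 10.5 days of development, of pooled sex. The samples form 1 group of 2 biological replicates, with no treatment, mutant or other tissue beside them. Replicate 1 was a pool of 69 embryos and replicate 2 a pool of 51 embryos. Because embryos were pooled, the spread between the replicates is a spread between pools and not between animals.

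A microRNA is cut from a hairpin in a longer primary transcript, and its mature form guides an Argonaute protein to messenger RNAs that pair with its seed, bases 2 to 8. Mcm7 encodes a subunit of the helicase that opens DNA for replication, and the hairpins in its intron are made from the same transcript. The cluster is a paralog of the one in the gene Mir17hg, which runs from miR-17 to miR-92a and whose products are known to favour cell division. In human tumour cells miR-106b and miR-93 are known to repress the cell cycle inhibitor CDKN1A, and miR-25 the pro-apoptotic gene BCL2L11. In cultured mouse neural stem cells the cluster has been linked to proliferation and to the making of neurons.

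The forebrain libraries were deep and alike in their bulk measures. The counts assigned to genes on their own strand summed to 3256070 in replicate 1 and 3574530 in replicate 2. Multiply mapped reads, which enter no count, made up 30.1% of the reads of replicate 1 and 28.8% of those of replicate 2. As a check of the tissue label, the forebrain neural markers Mir9, Mir92b, Mir124a and Mir135a, with 8 of 9 listed genes counted, summed to 20317 CPM (counts per 1000000 gene counts) in replicate 1 and 17757 CPM in replicate 2. Nearly all of that sum was Mir92b, and the genes of Mir9 and Mir124a, which have several loci, were counted only through reads that mapped to 1 place. The 6 Hox-cluster genes of hindbrain and trunk summed to 245 and 309 CPM, and the erythroid pair Mir451a and Mir144 to 661 and 760 CPM. The endothelial gene Mir126a reached 29029 CPM in replicate 1 and 31930 CPM in replicate 2, and the part of vessel RNA in the levels below was not tested. The liver gene Mir122 was at 10.7 and 9.79 CPM. The muscle list summed to 2.76 and 2.24 CPM, with 3 of its 4 counted genes at 0. Mir1a and Mir133a of that list also have several loci, so counts of 0 there do not show that muscle RNA was absent.

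The mature sequences are shown because they sort the members into 2 seed groups and decide whether their reads can be told from those of the paralogs. They come from RefSeq on GRCm38.p6, which covers all 3 members, and the seed is in capitals. The arm named for each member is the one usually reported as abundant, since the counts join both arms of a hairpin.
miR-106b-5p: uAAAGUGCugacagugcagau
miR-93-5p: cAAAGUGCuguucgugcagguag
miR-25-3p: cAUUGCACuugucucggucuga
Mir106b and Mir93 share their seed with 5 further genes. Mir17 and Mir20a belong to the Mir17hg cluster, Mir106a and Mir20b to the miR-106a-363 cluster, and Mir6383 to none of the clusters.
miR-17-5p: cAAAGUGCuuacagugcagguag
miR-20a-5p: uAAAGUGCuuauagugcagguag
miR-106a-5p: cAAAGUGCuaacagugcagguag
miR-20b-5p: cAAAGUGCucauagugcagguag
Mir25 shares its seed with 6 further genes, of which Mir92-1 and Mir92-2 give the same mature form, miR-92a-3p. Mir363 is the last hairpin of the miR-106a-363 cluster, while Mir92b, Mir32 and Mir367 belong to none of the clusters.
miR-92a-3p: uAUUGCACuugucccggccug
miR-92b-3p: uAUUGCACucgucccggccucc
miR-363-3p: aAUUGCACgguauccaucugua
miR-32-5p: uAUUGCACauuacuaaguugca
miR-367-3p: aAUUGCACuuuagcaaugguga

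With 5′ ends aligned, miR-93-5p differed from miR-106b-5p at 5 of 21 bases, from miR-17-5p at 4 of 23 and from miR-20b-5p at 3 of 23. miR-106b-5p differed from miR-17-5p, miR-20a-5p and miR-106a-5p at 3 of 21 bases each. Between the paralogs, miR-17-5p differed from miR-106a-5p at 1 of 23 bases. Whether reads of such close forms were counted for one another was not tested. miR-25-3p differed from miR-92a-3p at 3 of 21 bases, from miR-92b-3p at 6 of 22 and from miR-363-3p at 13 of 22. None of the 6 annotated mature forms of the members occurred in another of the 1005 RefSeq hairpins. The first 11 bases of miR-106b-5p, the first 10 of miR-93-5p and the first 9 of miR-25-3p were enough to match no other hairpin. Beside the members and Mcm7 itself, no gene among 141767 GENCODE M21 transcripts held any of the 6 forms. The miR-92a-3p form, in contrast, has 2 loci, so Mir92-1 and Mir92-2 were counted only as lower limits, and the same holds for Mir19b-1 and Mir19b-2 of the paralogous clusters. Places outside annotated transcripts were not searched.

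The hairpins are shown to place both arms of each member, which are in capitals.
Mir106b hairpin: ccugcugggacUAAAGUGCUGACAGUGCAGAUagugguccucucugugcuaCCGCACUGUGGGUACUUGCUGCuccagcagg
Mir93 hairpin: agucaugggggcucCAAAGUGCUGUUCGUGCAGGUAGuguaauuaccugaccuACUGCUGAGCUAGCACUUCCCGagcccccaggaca
Mir25 hairpin: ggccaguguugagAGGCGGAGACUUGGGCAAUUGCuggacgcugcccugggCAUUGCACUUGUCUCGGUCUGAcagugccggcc
They were 82, 88 and 84 bases long, with a GC content of 57.3%, 55.7% and 63.1%. The 12 hairpins of the paralogous clusters had a GC content of 38.1% to 47.5%, so the ranges did not overlap. Mir92b, outside the clusters, had 67.5%. The predicted folding energy was −41.0 kcal/mol for Mir106b, −46.3 kcal/mol for Mir93 and −35.9 kcal/mol for Mir25.

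The members lie head to tail on the minus strand of chromosome 5 (mm10). Mir106b (ENSMUSG00000065514.1) occupies 138165737 to 138165818, Mir93 (ENSMUSG00000065527.1) 138165523 to 138165610 and Mir25 (ENSMUSG00000065394.1) 138165321 to 138165404. The cluster spans 498 bases, with 126 bases between Mir106b and Mir93 and 118 bases between Mir93 and Mir25. Mcm7 (ENSMUSG00000029730.16) runs from 138164583 to 138172422 on the same strand. In its principal transcript all 3 hairpins lie in intron 13 of a 15-exon gene, an intron of 748 bases. Mir106b starts 6604 bases from the 5′ end of Mcm7. Mir93 and Mir25, but not Mir106b, also lie within the first exon of a further annotated transcript, which retains an intron.

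**Figure D1:**
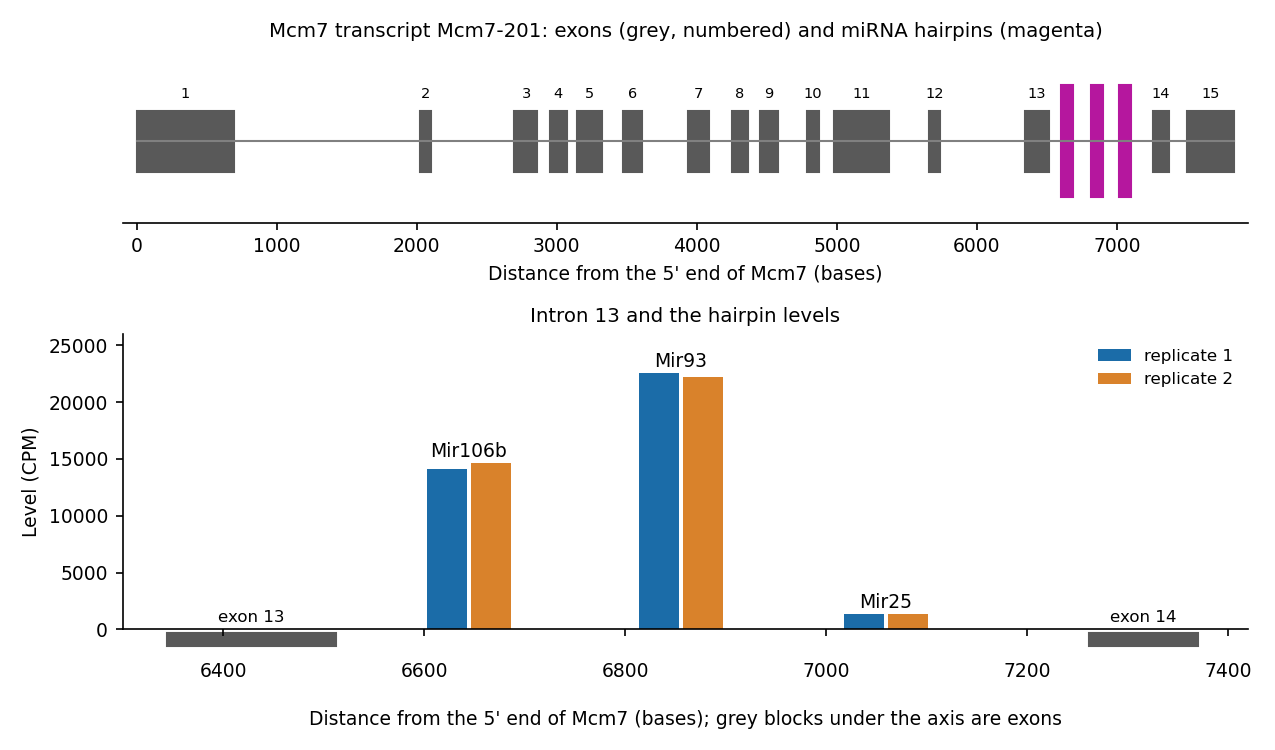
Position of the miR-106b-25 hairpins in the principal Mcm7 transcript (upper panel, exons numbered) and the level of each hairpin in CPM in both replicates (lower panel), against the distance in bases from the 5′ end of Mcm7. The hairpins follow each other in intron 13, and the last of them, Mir25, averaged 1329 CPM while Mir106b averaged 14390 CPM and Mir93 22373 CPM.

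The 3 members differed widely in level within the one intron, and the middle and first hairpins were far above the last. Mir93, in the middle of the cluster, was the highest, with 22561 CPM in replicate 1 and 22185 CPM in replicate 2, a mean of 22373 ± 266 CPM (SD, n = 2). Mir106b had 14131 CPM in replicate 1 and 14650 CPM in replicate 2, a mean of 14390 ± 368 CPM. Mir25 had 1306 CPM in replicate 1 and 1352 CPM in replicate 2, a mean of 1329 ± 32 CPM. The ranges of the 3 members did not overlap, and both libraries gave the same order. In bulk tissue, fewer cells that make a microRNA and less of it per cell cannot be told apart. Levels here are read counts, and whether counts of different microRNAs stand in proportion to their amounts was not tested.

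The counts behind these levels were large. Mir93 had 73460 and 79302 counts, Mir106b 46010 and 52368, and Mir25 4252 and 4832, in replicates 1 and 2. On the opposite strand all 3 had 0 counts in both libraries, which allows at most 0.921 CPM in replicate 1 and at most 0.839 CPM in replicate 2. The counts on the strand of the gene are therefore also the counts on either strand for each member.

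Together the members held 3.80% of all gene counts in replicate 1 (95% exact interval 3.78 to 3.82) and 3.82% in replicate 2 (3.80 to 3.84), a mean of 3.81% ± 0.013 (SD, n = 2). The intervals cover counting error only. With multiply mapped reads added to the total, the mean share was 2.13%, and the mean levels were 12536 CPM for Mir93, 8064 CPM for Mir106b and 745 CPM for Mir25. Within the cluster, Mir93 gave 59.4% of the counts in replicate 1 and 58.1% in replicate 2. Mir106b gave 37.2% and 38.4%, and Mir25 gave 3.44% and 3.54%. The cluster share was thus nearly the same in both pools, while its split between Mir93 and Mir106b moved by about 1 percentage point.

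Placed among all counted genes, Mir93 ranked 10 by mean CPM, Mir106b 15 and Mir25 98. The gene just above Mir93 was Mir99b (22564 ± 1380 CPM), whose range overlapped it. The gene just below was Mir92b (18228 ± 1668 CPM), whose range did not. Mir106b stood between Mir18 (14676 ± 567 CPM) and Mir431 (13330 ± 1630 CPM) and overlapped both. Mir25 stood between Mir421 (1346 ± 63 CPM) and Mir370 (1322 ± 215 CPM) and also overlapped both. The ranges of genes beyond these neighbours overlapped those of all 3 members as well, so each rank is uncertain by more than 1 place.

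Ratios of counts between members within a library need no scaling between libraries. Mir93 counts were 1.60 times those of Mir106b in replicate 1 (95% exact interval 1.58 to 1.62) and 1.51 times in replicate 2 (1.50 to 1.53). These intervals did not overlap, so counting error alone does not cover the difference between the pools, which was 0.08 on the log2 scale. Mir106b counts were 10.8 times those of Mir25 in both replicates, with intervals of 10.5 to 11.2 in each. Mir93 counts were 17.3 times those of Mir25 in replicate 1 (16.8 to 17.8) and 16.4 times in replicate 2 (15.9 to 16.9), where the intervals overlapped. Mir106b and Mir25, the outer members, thus held the same ratio in both pools, and Mir93 was slightly higher against each of them in replicate 1. Divided by hairpin length, which is close to equal, the mean log2 ratio of Mir93 over Mir106b was 0.53 against 0.64 for plain counts.

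**Figure D2:**
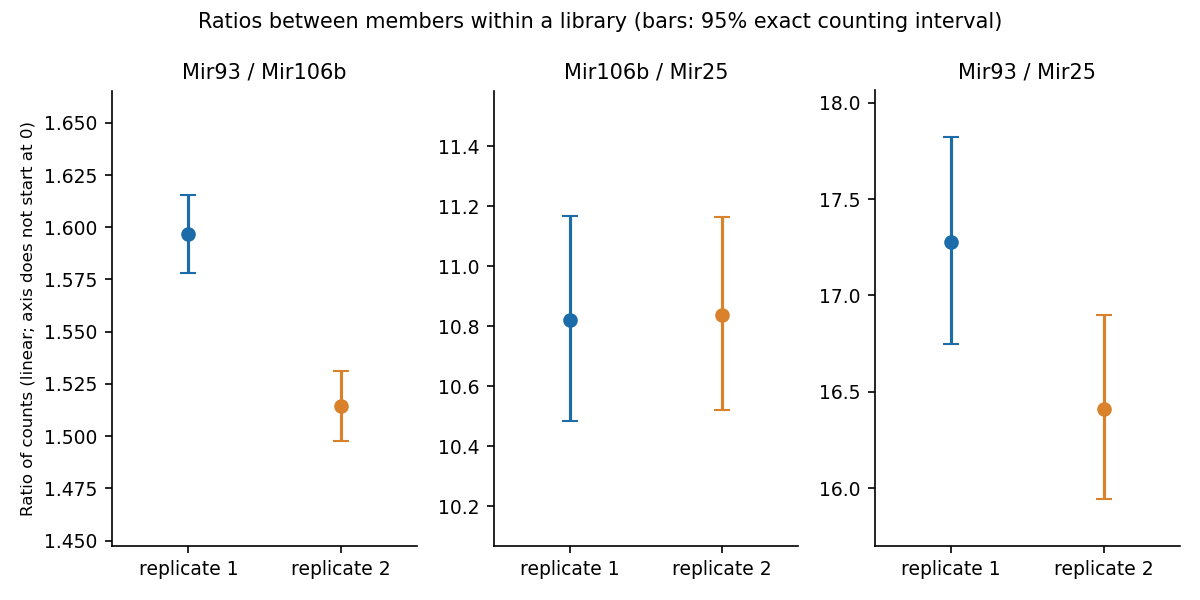
Ratio of counts between members within each library, on linear axes that do not start at 0, with 95% exact counting intervals as bars. The intervals of Mir93 over Mir106b lie apart (1.60 in replicate 1 and 1.51 in replicate 2), and those of Mir106b over Mir25 lie on each other (10.8 in both).

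The seed group of Mir106b and Mir93 was one of abundant genes. Its 7 genes held 18.5% of all gene counts in replicate 1 and 19.3% in replicate 2. Mir93 and Mir106b together gave 19.9% of the group's counts in replicate 1 (95% exact interval 19.8 to 20.0) and 19.1% in replicate 2 (19.0 to 19.2), a mean of 19.5% ± 0.54 (SD, n = 2). Mir17 of the Mir17hg cluster gave 50.8% and 51.1%, and Mir20a of that cluster 19.2% and 19.3%. Mir106a and Mir20b of the X-linked cluster gave 6.47% and 3.63% in replicate 1 and 6.88% and 3.62% in replicate 2. Mir6383 had no count in either library. The Mcm7 hairpins were thus second to Mir17hg in this group and ahead of the X-linked hairpins.

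Set against single paralogs with the same seed, Mir93 counts were 0.233 ± 0.011 times those of Mir17, 0.616 ± 0.027 times those of Mir20a, 1.78 ± 0.15 times those of Mir106a and 3.27 ± 0.13 times those of Mir20b (mean ± SD, n = 2). Mir106b counts were 0.149 ± 0.0014 times those of Mir17, 0.396 ± 0.0025 times those of Mir20a, 1.14 ± 0.055 times those of Mir106a and 2.10 ± 0.0072 times those of Mir20b. The log2 ratios of Mir106b to Mir17, Mir20a, Mir106a and Mir20b were higher in replicate 1 by 0.019, 0.013, 0.098 and 0.0069. Those of Mir93 to the same genes were higher in replicate 1 by 0.095, 0.089, 0.17 and 0.083. For Mir106b the counting intervals of the libraries overlapped against Mir17, Mir20a and Mir20b and lay apart against Mir106a. For Mir93 they lay apart against each of the 4 genes. For both members the shift was largest against Mir106a among these 4 genes. Mir106b and Mir106a are close. Divided by the annotated hairpin length, 82 bases for Mir106b and 65 for Mir106a, their order turned round. That gave 175 ± 4.5 CPM per base for Mir106b and 194 ± 14 CPM per base for Mir106a. Their mature forms shown above have 21 and 23 bases.

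Mir25 was a minor part of its own seed group. The 7 genes with this seed held 4.08% of all gene counts in replicate 1 and 3.92% in replicate 2. Mir25 gave 3.20% of the group's counts in replicate 1 (95% exact interval 3.11 to 3.30) and 3.45% in replicate 2 (3.36 to 3.55). Mir92b gave 47.6% and 43.5%, Mir92-1 25.7% and 26.2%, and Mir363 18.5% and 21.7%. Mir92-2 gave 4.03% and 3.94%, and Mir32 and Mir367 made up the rest. Mir25 counts were 0.073 ± 0.0085 times those of Mir92b, 0.128 ± 0.0050 times those of Mir92-1 and 0.166 ± 0.0094 times those of Mir363 (mean ± SD, n = 2). Since Mir92-1 and Mir92-2 are lower limits, the share of Mir25 in the group may be lower than printed. Set against the genes of a single locus alone, its mean share was 4.75%.

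**Figure D3:**
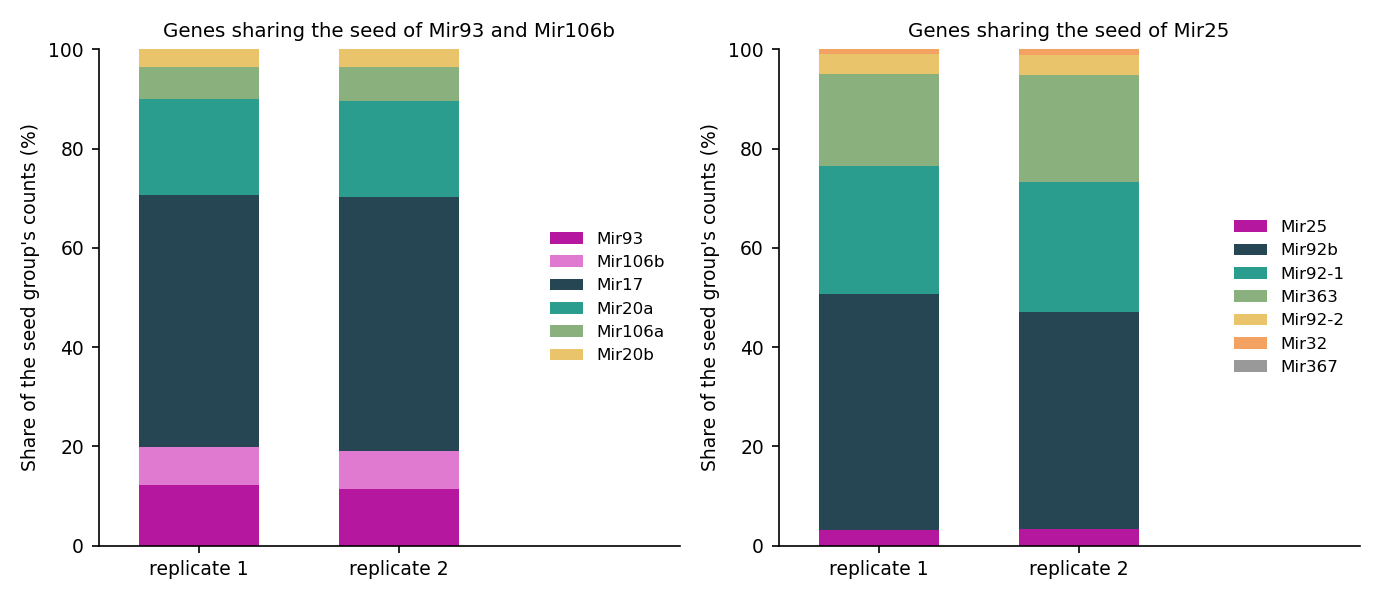
Share of the counts of each seed group given by its genes in each library, with the members of the miR-106b-25 cluster at the bottom in magenta. Mir93 and Mir106b gave 19.9% of their group in replicate 1 and 19.1% in replicate 2, and Mir25 gave 3.20% and 3.45% of its group.

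Compared with its paralogs as a whole, the miR-106b-25 cluster gave 17.2% of the counts of the 3 clusters in replicate 1 and 16.5% in replicate 2. The Mir17hg cluster gave 69.8% and 69.9%, and the miR-106a-363 cluster 13.0% and 13.5%. The Mcm7 cluster reached this share with 3 hairpins against 6 in each paralog, and it has no hairpin of the miR-18 or miR-19 kind. Since Mir92-1, Mir92-2, Mir19b-1 and Mir19b-2 are lower limits, the share of the Mcm7 cluster may be lower than printed. In all 3 clusters the hairpins with the seed of Mir106b and Mir93 included the most abundant one. Mir93 counts were 16.8 ± 0.61 times those of Mir25, while Mir17 counts were 9.28 ± 0.46 times those of Mir92-1 and Mir106a counts 7.92 ± 0.94 times those of Mir92-2 (SD, n = 2). The paralog ratios rest on lower limits for Mir92-1 and Mir92-2, so they are upper limits. Mir106a counts were 1.57 ± 0.012 times those of Mir363, which also has the seed of Mir25.

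**Figure D4:**
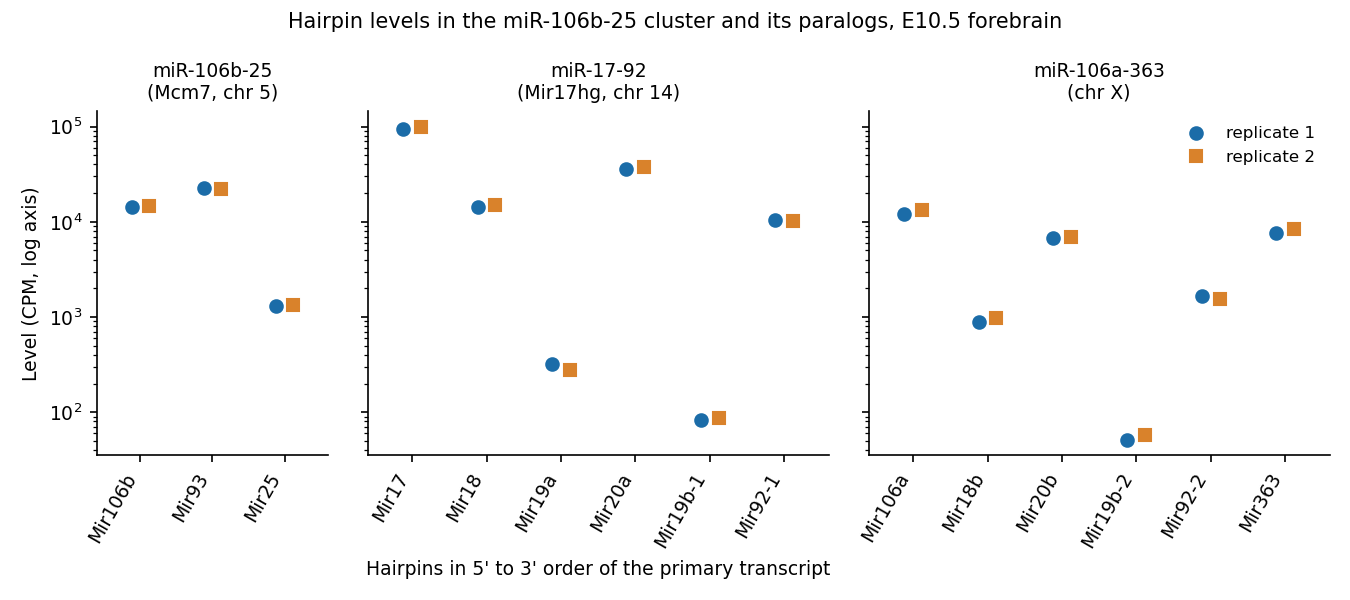
Level of every hairpin of the miR-106b-25, Mir17hg and miR-106a-363 clusters in CPM on a log axis, in the 5′ to 3′ order of each transcript, with 1 point per replicate. Mir93 and Mir106b stand between Mir17 (96278 CPM) and Mir20b (6839 CPM), and Mir25 stands beside Mir92-2 (1595 CPM).

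Between the pools the members differed little. The log2 ratio of replicate 1 over replicate 2, after TMM scaling, was −0.08 for Mir106b, −0.0065 for Mir93 and −0.08 for Mir25. An exact binomial test, two-sided and adjusted by Benjamini-Hochberg over 401 genes, called Mir106b lower in replicate 1 (adjusted p = 1.8e-18) and Mir25 lower in replicate 1 (adjusted p = 0.020). It did not call Mir93 (adjusted p = 0.55). The test covers counting error and compares these 2 libraries only, and it called 43.4% of all tested genes different, 23.7% being lower in replicate 1, and read against that background 2 called members of 3 are no result about the cluster. The size of the ratio was 0.17 in the median over all tested genes, above that of each member. The direction of Mir93 turned with the scaling, to 0.02 with total counts (adjusted p = 0.0029, exact binomial) and with DESeq2 size factors (adjusted p = 0.0034, exact binomial), and under those scalings Mir25 was no longer called (adjusted p = 0.19 in each, exact binomial). Mir106b was lower in replicate 1 under every scaling and filter tried, between −0.11 and −0.05.

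The size of the ratio was 0.08 in the median over the 3 members, 0.10 over the 6 genes of the Mir17hg cluster and 0.18 over the 6 of the miR-106a-363 cluster, differences that were not tested. In the Mir17hg cluster they ran from −0.11 for Mir18 to 0.20 for Mir19a, with a median of −0.10, and 3 of 6 genes were called lower and 1 higher in replicate 1. In the miR-106a-363 cluster they ran from −0.20 for Mir19b-2 to 0.06 for Mir92-2, with a median of −0.18, and 4 of 6 were called lower. Over all 401 tested genes the median was −0.03, with 95 genes called lower and 79 higher in replicate 1. Where the average count was at least 100, 88 of 271 genes were called lower and 74 higher. Read against these numbers, the calls in the Mir17hg and miR-106a-363 clusters are no result about either cluster.

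**Figure D5:**
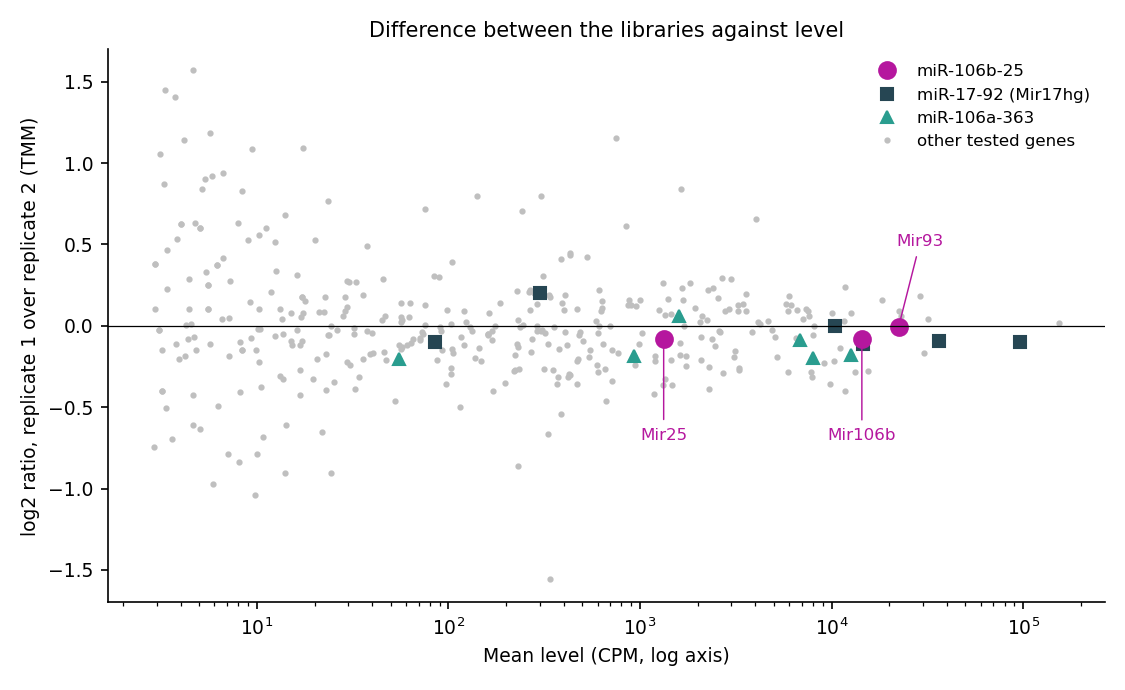
log2 ratio of replicate 1 over replicate 2 after TMM scaling against mean level in CPM (log axis) for the tested genes, with the 3 clusters marked. The members lie close to 0, at −0.0065 for Mir93 and −0.08 for Mir106b and Mir25, and 3 genes fall outside the axis limits.

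Among the 271 genes that reached a mean count of 100, those nearest in ratio between the pools were sought, with the members left out. Nearest to Mir106b was Mir101b, followed by Mir1955 and Mir670, which differed from it by at most 0.00063 on the log2 scale. The same 3 genes were the nearest to Mir25 outside the cluster, within 0.0029. Mir106b, at −0.0829 against −0.0806 for Mir25, was nearer to Mir25 than Mir101b and Mir670 were. Nearest to Mir93 were Mir29c, Mir3074-1 and Mir877, within 0.0020. The listed genes lie on other chromosomes than the cluster, whose own hairpins could not be listed. This likeness is taken over 2 libraries, and with so many genes near 0 it singles out none.

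A promoter window of Mcm7 is shown because the 3 members lie in Mcm7 as their host gene. RefSeq gives a pair of Mcm7 starts, and the upstream one, at chr5:138171834-138172133 (GRCm38.p6, minus strand), is printed from 250 bases before the start to 50 after it. GENCODE places the 5′ end of Mcm7 further upstream, at 138172422, outside this window. The whole window, with its matches, therefore lies within exon 1 of the principal transcript used above to place the hairpins. Capitals mark letters of the E2F motif, searched on both strands as TTTCCCGC, TTTCGCGC, TTTGCCGC and TTTGGCGC, which do not overlap here.
Mcm7 promoter: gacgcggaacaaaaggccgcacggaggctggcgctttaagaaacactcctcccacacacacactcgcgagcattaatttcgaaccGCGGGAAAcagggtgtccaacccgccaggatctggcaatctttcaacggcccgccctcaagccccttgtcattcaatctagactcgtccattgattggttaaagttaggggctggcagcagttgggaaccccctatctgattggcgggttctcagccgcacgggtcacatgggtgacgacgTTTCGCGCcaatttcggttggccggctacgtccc
It held 2 matches, GCGGGAAA (the reverse complement of TTTCCCGC) and TTTCGCGC, and the window of the other start held none. Of 32851 promoter windows of the same length, 2.26% held at least 1 match. E2F proteins are known as regulators of replication genes such as Mcm7. The match is a description of these letters with no measurement of binding.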

How the data were processed

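Small RNA from 2 pools of embryonic forebrain, numbered as biological replicates in the labels, was analysed as 1 group. The authors deposited raw counts of reads per gene, on assembly mm10 with genome annotation M4, per the file notes. How reads were trimmed, aligned and counted is not stated in the labels or file notes. Each file holds a count on either strand, on the strand of the gene and on the opposite strand. The strand of the gene was used, and reads mapped to several places belong to no gene. Symbols came from GENCODE M21 on the same build, for 1894 of 1973 identifiers. The libraries differed by more than sampling noise (chi-square over degrees of freedom 45.4), so they are not the same library.

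CPM were computed on total gene counts. Log2 ratios used TMM factors (edgeR 4.0.16, R 4.3.3) over the 401 genes whose mean count reached 10, with a pseudocount of 0.5 counts. An exact binomial test per gene, with Benjamini-Hochberg adjustment and a threshold of 0.05, compared the libraries, since 1 library a side leaves no degrees of freedom for a quasi-likelihood test. It was tested on simulated counts with known changes and sampling noise alone. The real libraries differed by more than that, so the simulation does not give its error rate on them. Shares carry exact Clopper-Pearson intervals and ratios of counts exact conditional intervals at 95%, for counting error only, since PCR copies of a molecule are not independent. A count of 0 allows 3 counts. Levels are not divided by length unless said, since a read spans a whole mature RNA. Folding used RNAfold 2.7.2, and the rest Python 3.11.15, scipy 1.17.1 and pandas 2.3.3. Alternatives were DESeq2 1.42.0 size factors, total-count scaling, other filters, a pseudocount of 5, either strand, other totals and leaving out each replicate.

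The members and lists were chosen with earlier results of these data known. Named are the members, the genes of both paralogous clusters, genes that share a seed with a member and the neighbours in level. For each member the 3 genes nearest in ratio, members left out, are named too.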

Additional observations from a re-analysis of the deposited data

How the results depend on the processing

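Levels depend on the total they are set against. Mean levels of Mir93, Mir106b and Mir25 were 21598, 13892 and 1283 CPM with counts on either strand, 26469, 17024 and 1572 CPM without the most abundant gene, and 12536, 8064 and 745 CPM with reads mapped to several places added to the total. The cluster share was 3.68%, 4.51% and 2.13% under these settings, and between 3.80% and 3.82% with either replicate left out. Mir93 turned to 0.02 between the libraries (log2) with total counts and with DESeq2 size factors (0.024 in each) and to 0.018 with a mean count of 100 or more, and it was called lower, at −0.030, without a filter (its adjusted p ran from 0.00089 to 0.55 over the alternatives, exact binomial). Mir25 lost its call, at −0.050 with both scalings and −0.056 with a mean count of 100 or more (adjusted p 0.0092 to 0.19 over the alternatives, exact binomial). These settings move every gene by the same amount. The number of called genes was between 149 and 182, but out of different numbers of tested genes. It was 174 of 401 in the main setting and 149 of 1973 without a filter. With a mean count of 100 or more it was 162 of 271, and on either strand 182 of 413. Divided by hairpin length, an alternative chosen after seeing the data, mean log2 ratios were 0.53 for Mir93 over Mir106b, 4.01 for Mir93 over Mir25 and 3.47 for Mir106b over Mir25. With genes of a single locus, the cluster gave 17.8% of the 3 paralogous clusters and Mir25 4.75% of its seed group. Mir106b stayed lower in replicate 1 and called under each scaling and filter. With 2 replicates, leaving out either moves a mean by less than 1 SD by construction, and ratios between members cannot change on either strand, as their opposite-strand counts are 0, so neither shows stability. With 1 group there is no comparison between conditions, and 2 pools limit every SD. Reads of several loci limit the paralog shares.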

Other observations

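Hairpins of the same transcript did not all keep their ratio between the pools in the paralogous clusters either. The log2 ratio of Mir93 over Mir106b was higher in replicate 1 by 0.08, and that of Mir106b over Mir25 differed by −0.0023. In the Mir17hg cluster, Mir17 over Mir20a differed by −0.0059 and Mir17 over Mir92-1 by −0.10. In the miR-106a-363 cluster, Mir106a over Mir363 differed by 0.02, Mir106a over Mir20b by −0.09 and Mir106a over Mir92-2 by −0.24. Mir92-1 and Mir92-2 are lower limits, and multiply mapped reads made up 30.1% of replicate 1 and 28.8% of replicate 2. The choice of pairs was made with their values in view, and what moved with the differences was not tested.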
